A study of Mus musculus with 6 samples.

Results

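mmu-miR-3084, mmu-miR-690, mmu-miR-3473 and mmu-miR-3473b, given below without the mouse prefix mmu, are 4 microRNA (miRNA) reporters of the 1078 on the arrays of this series. They were chosen by exact reporter name, among the largest rises with TNF-α, as entries known mainly from mouse. The choice used their median densities on these arrays, so their levels and differences are given as a description, with no test. The series compared cultures of vascular smooth muscle cells (VSMCs), which give the arterial wall its tone, taken from abdominal aortas of 8 weeks old C57BL/6 mice. One group of 3 cultures was treated with the inflammatory cytokine TNF-α and the other 3 were untreated controls, and both were harvested after several passages. The cultures were grown independently, and neither dose nor duration of TNF-α is given in the sources used here. Total RNA was tailed, tagged and read in 1 colour (Cy5), with 1 array per culture.

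An miRNA is cut from a hairpin precursor and loaded into an Argonaute protein, where its seed, bases 2 to 8, pairs with target mRNAs and lowers their output. TNF-α acts on VSMCs through receptors that activate NF-kB, and the inflamed arterial wall is a setting in which VSMC miRNAs are often studied. Mouse miR-690 is known to target Nadk, which encodes NAD kinase, and mouse miR-3473b has been studied in inflammatory responses of macrophages and microglia.

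The mature sequences are shown because the members differ in seed and yet miR-3473 and miR-3473b share most of their letters. They are from RefSeq (GRCm38.p6), 5′ to 3′, with the seed in capitals. miR-690 and miR-3473b matched by exact name, and miR-3084 and miR-3473 through older gene names that RefSeq lists for Mir3084-1 and Mir3473a. RefSeq gives 2 arms for miR-3084, and which of them the miR-3084 and miR-3084* reporters read is not given in the sources used here, so both are shown.
miR-3084-3p: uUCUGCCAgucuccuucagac
miR-3084-5p: gUUGAAGGuuaauuagcagagu
miR-690: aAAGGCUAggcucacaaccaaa
miR-3473 (miR-3473a in RefSeq): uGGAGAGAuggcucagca
miR-3473b: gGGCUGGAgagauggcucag

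No pair of members shared a seed. Over the 1679 mature names in the table, the seeds of both miR-3084 arms and of miR-690 occurred in no other entry, that of miR-3473a in miR-882 and that of miR-3473b in miR-3473e. miR-3473a and miR-3473b shared an unbroken run of 16 bases, from base 1 to base 16 in miR-3473a and from base 5 to base 20 in miR-3473b. The same run in capitals shows the offset that separates their seeds.
miR-3473a: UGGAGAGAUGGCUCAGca
miR-3473b: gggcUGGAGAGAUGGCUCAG

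The hairpin of miR-690 held the same 16 bases, although its mature sequence does not. The run ended 5 bases before the mature miR-690 begins, and the hairpins of miR-690 and miR-3473a shared 20 bases around it. The hairpins of miR-690, miR-3473a and miR-3473b are shown with the run in capitals. Mir690 lies at chr16:28599935-28600043, minus strand, within the span of Fgf12. Mir3473a lies at chrX:162874918-162874995, minus strand, within the span of Syap1. Mir3473b lies at chr10:41670739-41670793, plus strand, within the span of Ccdc162. Whether the hairpins are intronic was not analysed here.
Mir690: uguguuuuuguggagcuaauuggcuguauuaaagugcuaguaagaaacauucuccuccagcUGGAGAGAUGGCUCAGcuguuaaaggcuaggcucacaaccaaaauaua
Mir3473a: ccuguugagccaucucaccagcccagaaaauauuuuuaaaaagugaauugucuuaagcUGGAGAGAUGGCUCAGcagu
Mir3473b: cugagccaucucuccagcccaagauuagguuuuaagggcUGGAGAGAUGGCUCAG

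Of 1005 mouse miRNA hairpins in the table, 7 held the run on either strand, and 4 of the 7 had a reporter on these arrays, namely miR-690, miR-3473, miR-3473b and miR-3473c. The letters are known as part of the B2 family, short interspersed repeats that RNA polymerase III transcribes and that are scattered through rodent genomes. In the Mir3473b hairpin the first 20 bases were the exact reverse complement of the mature miR-3473b. The motif TGGAGAGATGGCTCAG, searched on both strands, stood in 51 of 32851 RefSeq promoter windows of 300 bases (0.155%). Any 12-base window of a mature sequence was also searched on both strands. The commonest window of miR-3473a and miR-3473b was GAGATGGCTCAG, in 133 promoter windows (0.405%), and that of miR-690 was GGCTCACAACCA, in 100 (0.304%). Over the 1679 mature names, 99.5% had a lower count than the miR-3473a window and 99.0% a lower count than that of miR-690, and the median count was 6. The commonest windows of the miR-3084 arms, CTGCCAGTCTCC for miR-3084-3p and TGAAGGTTAATT for miR-3084-5p, stood in 12 and 2 promoter windows, and 79.2% and 5.72% of the mature names had a lower count than these. Probe sequences are not stated in the sources used here, and how far a reporter also captures another RNA with the same letters was not tested.

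miR-3084 is instead encoded by 2 identical hairpins of 69 bases, both on chromosome 19, so its signal cannot be divided between them. Mir3084-1 lies at chr19:24942235-24942303 within the span of Cbwd1 and Mir3084-2 at chr19:60774329-60774397 within the span of Eif3a, both on the minus strand. The hairpin is shown with the 5p and 3p arms in capitals.
Mir3084-1: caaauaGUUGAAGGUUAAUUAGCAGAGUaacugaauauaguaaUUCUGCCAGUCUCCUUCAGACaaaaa

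The densities are linear scanner intensities from which no background had been subtracted. An array's background is described by the peak of its density distribution, and its background limit is that peak plus 3 SD of the values below it. The background peak was 82.0 to 91.4 on TNF-α arrays and 68.4 to 76.8 on control arrays, and 228 to 250 reporters exceeded the limit on TNF-α arrays against 284 to 324 on control arrays. The sets of arrays therefore differ in background as well as in treatment, and a technical difference between the sets cannot be told apart from TNF-α. Of the 2 markers of smooth muscle, miR-143 read 3135 to 3481 on TNF-α arrays and 3247 to 3918 on control arrays, and miR-145 read 5664 to 6900 and 4451 to 5632 on the same sets. The 4 blood cell markers miR-142-3p, miR-142-5p, miR-223 and miR-451 stayed under the limit on every array. Their summed density was 283 to 346 on TNF-α arrays and 271 to 305 on control arrays. A further marker of macrophages and the blood lineage, miR-150, read 86.5 to 101.5 on TNF-α arrays and 87.0 to 99.5 on control arrays. It exceeded the limit on 0 TNF-α arrays and 1 control array. Of the 2 endothelial markers, miR-126-3p read 117 to 144 on TNF-α arrays and 119 to 157 on control arrays, above the limit on 2 and 3 of them, and miR-126-5p stayed under it. Of 3 striated muscle markers chosen, 2 were found by exact name, and miR-1 was not. miR-206 read 168 to 199 on TNF-α arrays and 237 to 277 on control arrays, above the limit on all, and miR-133a stayed under it. miR-133b, on the arrays but not among the markers chosen, exceeded the limit on 0 TNF-α arrays and 1 control array. The part of other cell types in the members' values was not tested. Less of an miRNA per cell and a lower share of cells with it cannot be told apart in such bulk RNA. The precision of all values is limited by the number of arrays.

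miR-3084 was the member with the largest difference. Its density was 448, 360 and 381 on the TNF-α arrays, against 194, 198 and 178 on the control arrays. The groups were far apart, and the control arrays lay close together. The mean was 397 ± 45.9 with TNF-α and 190.1 ± 10.7 in controls (SD, n = 3 each). On the main scale, which is log2 after background correction by the normexp method with an offset of 50 and quantile normalization, the difference was 1.10 ± 0.11 (standard error, SE), or 2.15-fold higher with TNF-α. The offset damps the differences of dim reporters. In the densities as deposited, the lowest TNF-α array was 1.82-fold over the highest control array and the highest was 2.52-fold over the lowest control array. Relative to the background peak of each array, the mean was 309 ± 44.8 with TNF-α and 117 ± 6.66 in controls, a ratio of 2.63.

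miR-690 lay far above the background limit on every array. Its density was 10261, 10745 and 8168 on the TNF-α arrays, against 6236, 6006 and 4920 on the control arrays. In each group the array numbered 3 was the dimmest, and the groups did not overlap. The mean was 9724 ± 1369 with TNF-α and 5721 ± 703 in controls (SD, n = 3 each), with coefficients of variation of 14.1% and 12.3%. In the authors' processed table the values were 10177, 10372 and 9208 with TNF-α and 6167, 5897 and 5628 in controls, with coefficients of variation of 6.28% and 4.57%. On the main scale miR-690 was 1.55-fold higher with TNF-α (log2 0.63 ± 0.07, SE). The value of miR-690 on that scale was 13.14, 13.23 and 13.14 with TNF-α and 12.58, 12.49 and 12.55 in controls. Quantile normalization sets each value by the reporter's rank on its array. TNF-α replicates 1 and 3 had the same percentile (98.9) and so the same value. The small spread on that scale is therefore no measure of steadiness in density. The ratio of single arrays in the raw densities ran from 1.31 to 2.18. The deposited standard deviation of miR-690 was 1.14% to 3.65% of its density.

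miR-3473b had the largest standard error of the members on the main scale. Its density was 859, 602 and 761 on the TNF-α arrays, against 548, 552 and 436 on the control arrays. TNF-α replicate 2 lay close to the controls and the other 2 TNF-α arrays well above them, and the groups did not overlap. The gap between TNF-α replicate 2 and control replicate 2 was 49.5, smaller than the deposited standard deviation of the reporter on either array (86.3 on TNF-α replicate 2 and 49.8 on control replicate 2). The mean was 741 ± 130 with TNF-α and 512 ± 66.0 in controls (SD, n = 3 each). On the main scale miR-3473b was 1.60-fold higher with TNF-α (log2 0.68 ± 0.18, SE). Ratios of single arrays in the densities as deposited ran from 1.09 to 1.97. Without TNF-α replicate 2 the difference was 0.93 and without TNF-α replicate 1 it was 0.56.

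miR-3473 lay close to background. Its density was 135, 158 and 141 on the TNF-α arrays, each above that array's limit of 127, 132 and 118. On the control arrays it was 92.9, 102.2 and 79.0, each below the limit of 95.4, 103.8 and 93.9. The groups did not overlap, but the gap between TNF-α replicate 1 and control replicate 2, 32.6, was less than the sum of the 2 deposited standard deviations (22.8 and 18.8). Because the controls have only a bound, miR-3473 was at least 1.35-fold higher with TNF-α in the means on the main scale. This bound sets the TNF-α mean against the mean of the lowest values above the limit on the control arrays, or of miR-3473 itself where that was higher. The 1.35 is no lower limit for other settings or for single arrays. With a larger offset the fitted fold of miR-3473 was 1.25. In the densities as deposited its lowest ratio of single arrays was 1.32. The means on the main scale were 7.11 ± 0.16 with TNF-α and 6.57 ± 0.10 in controls (SD, n = 3 each). The densities of miR-3473 relative to the background peak were 43.9, 67.1 and 59.3 with TNF-α and 19.8, 25.3 and 10.7 in controls. In the processed table the coefficient of variation of miR-3473 was 19.2% with TNF-α and 35.1% in controls, against 21.9% and 10.5% for miR-3473b.

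**Figure D1:**
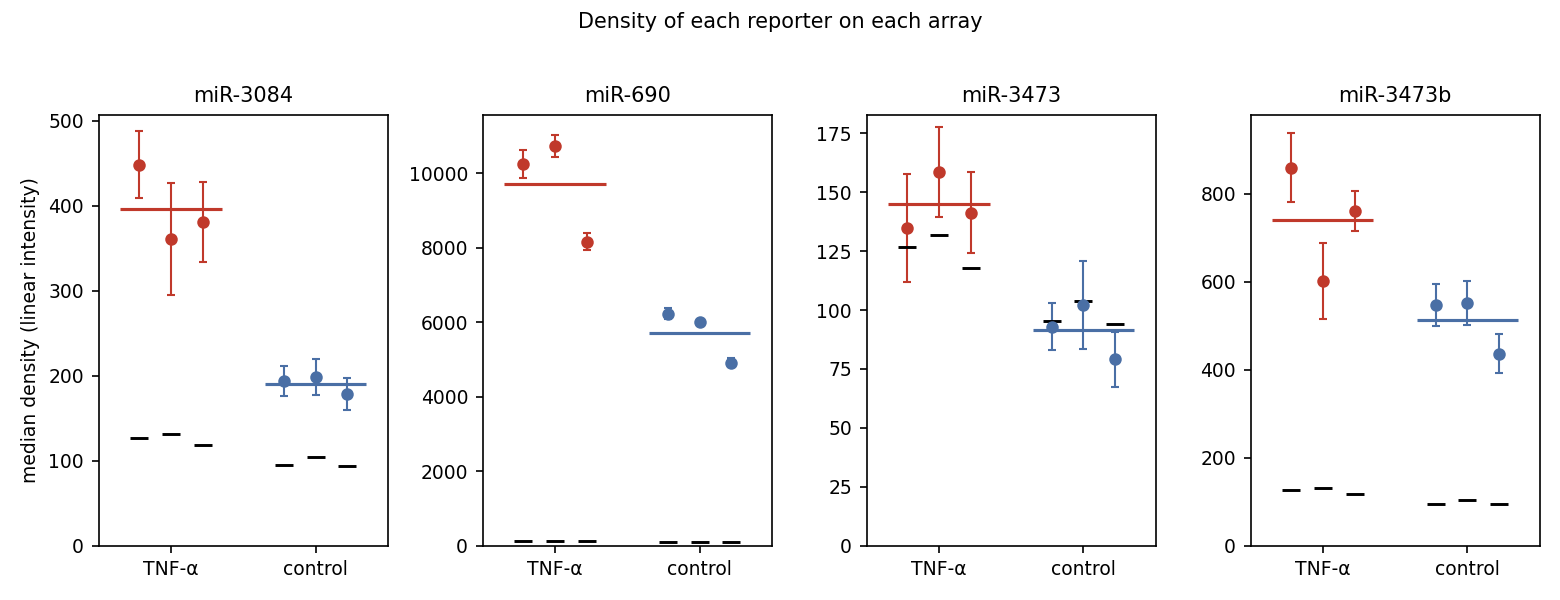
Median density of miR-3084, miR-690, miR-3473 and miR-3473b (linear intensity, each panel with its own axis from 0) on the 3 TNF-α and 3 control arrays, in replicate order. Points are arrays, whiskers the deposited standard deviation of the reporter, coloured lines group means and black dashes each array's background limit; miR-3473 lies under the limit on all control arrays, and TNF-α replicate 2 of miR-3473b (602) lies near the controls.

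The TNF-α values lay above all control values for 4 of 4 members on the main scale, where this held for 131 of 642 tested reporters (20.4%). The tested reporters are those with a corrected density of 32 or more on at least 3 arrays, and all 4 members reached it on all 6 arrays. The same held for 4 of 4 members in the densities as deposited, where 37.1% of tested reporters lay higher in this way. It also held after subtraction of the background peak (15.4%) and in the processed table (21.2%). The members were chosen for this difference, so nothing is read from these counts. Over all tested reporters limma called 83 higher (12.9%) and 63 lower (9.81%) at an adjusted p under 0.05.

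By size of difference among the 202 reporters above the limit on all 6 arrays, miR-3084 ranked 2, miR-3473b 4 and miR-690 5. miR-3473 has no rank, since its control values give only a bound. The choice had no stated threshold. miR-3084 stood between miR-341* (1.26) and miR-30d (0.71). miR-3473b followed miR-30d, and miR-690 stood between miR-3473b and miR-29b (0.60). In the order of all 642 tested reporters the neighbours also included miR-466k and miR-488*, under the limit on every array, miR-1188, under it on every control array, and miR-34a and miR-181c beside miR-3473.

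**Figure D2:**
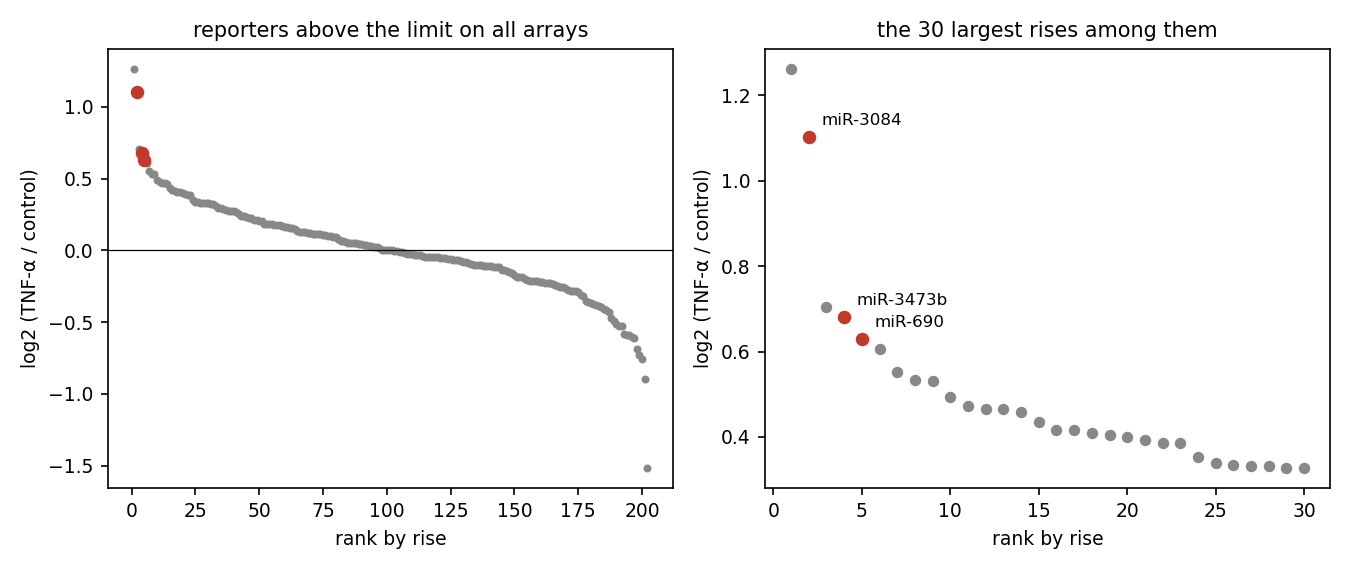
Log2 difference (TNF-α over control, main scale) of the 202 reporters above the background limit on all 6 arrays, in order of size on the left, and of the 30 largest rises among them on the right. Red points are miR-3084, miR-3473b and miR-690 and grey points the other reporters; miR-3084 (1.10) lies apart from the reporters below it.

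The members kept their direction under each of 14 other settings, and in each of them their groups did not overlap. All settings reuse the arrays on which the members were chosen. How many of all reporters kept groups apart was not counted for each setting, so only the sizes are described. The scaling of the arrays moved them in different ways. miR-3084 was 1.05 without normalization, 1.00 with each array scaled to its median over detected reporters, 1.11 with cyclic loess and 1.18 in the processed table, against 1.10 on the main scale. miR-690 was larger under those settings, at 0.76, 0.71, 0.77 and 0.75 against 0.63. miR-3473b was smaller in all of them, at 0.52, 0.47, 0.65 and 0.54 against 0.68. The fitted value of miR-3473, which is no bound, was 0.64, 0.59, 0.53 and 0.80 against 0.54. Without normalization the median of all tested reporters was itself 0.14, and in the processed table -0.12.

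The order among the 202 reporters also moved. miR-3084 ranked 1 to 2 under these settings, miR-3473b 3 to 7 and miR-690 3 to 8. Without normalization and with median scaling miR-690 ranked 3 and miR-3473b 7. Over all tested reporters, dim ones included, the ranks ran from 2 to 4 for miR-3084, 3 to 34 for miR-3473b and 3 to 43 for miR-690. The offset moved the size of the dim members most. miR-3473 was 0.86 with the smaller offset tried and 0.32 with the larger one, and miR-3084 was 1.30 and 0.86. miR-690, far above the offset, was 0.63 and 0.62. Leaving out each array in turn gave 1.03 to 1.23 for miR-3084, 0.60 to 0.67 for miR-690, 0.49 to 0.63 for miR-3473 and 0.56 to 0.93 for miR-3473b.

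**Figure D3:**
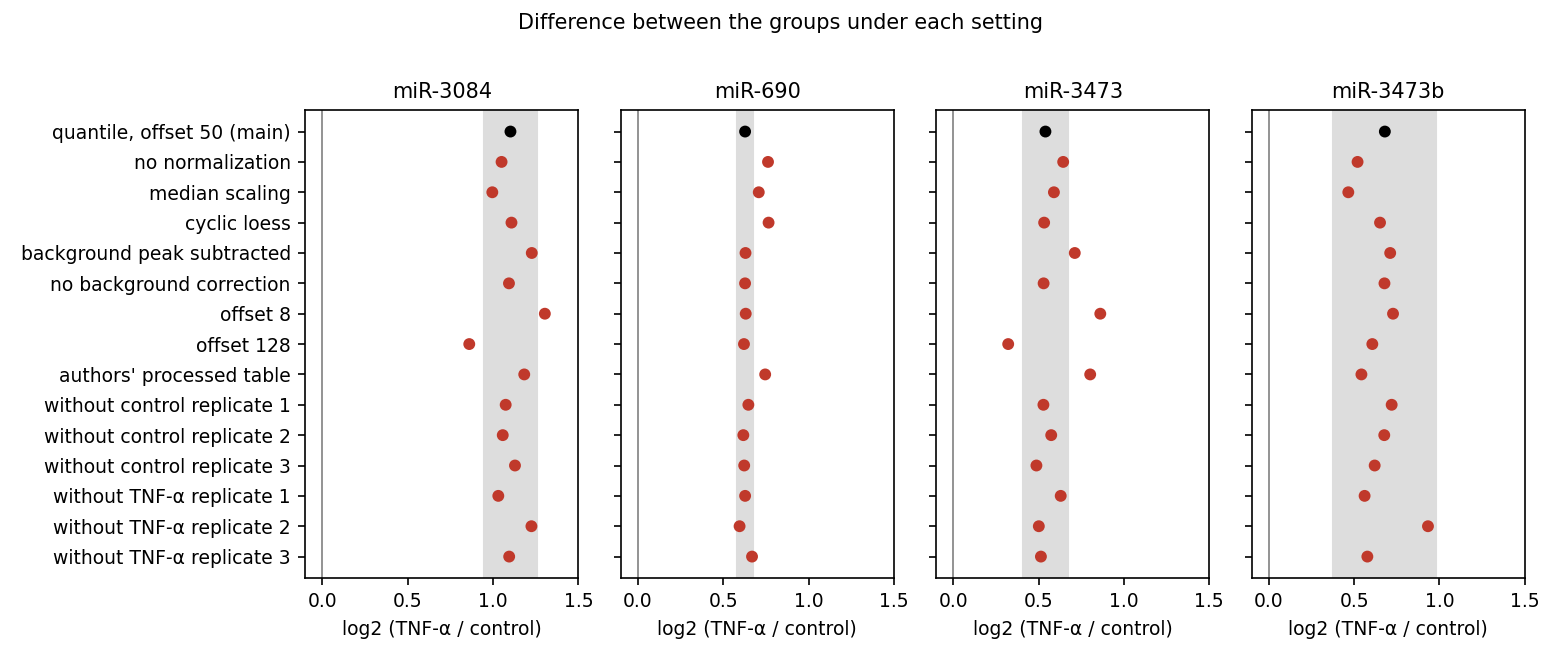
Log2 difference (TNF-α over control) of each member under the main setting (black) and 14 others (red). The grey band is the main value plus or minus the SD between replicates. miR-3084 leaves it only with the 2 other offsets, and miR-3473b, whose band is the widest, never. miR-690, whose band is narrow, leaves it with 3 scalings and the processed table.

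Other reporters of the same hairpin or name gave weak signals. miR-3084*, from the other arm of the miR-3084 hairpin, read 110, 85.3 and 82.3 on the TNF-α arrays and 99.6, 108.6 and 86.9 on the control arrays, so the groups overlapped. It exceeded the limit on 0 TNF-α arrays and 2 control arrays. Its fitted value did not pass (limma, adjusted p = 0.0701), although it passed as lower without TNF-α replicate 1 and with a trended robust variance. No fold is given, because the control mean lay below the bound that the limits of the TNF-α arrays allow.

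miR-3473c and miR-3473d carry letters of the opposite strand. They are shown because both share reverse-complement runs with miR-3473b. miR-3473c begins with the reverse complement of the first 12 bases of miR-3473b, in capitals. miR-3473d holds a run of 8 bases near its end, also in capitals. It holds another at bases 4 to 11, not in capitals, which is the reverse complement of the last 8 bases of miR-3473b. Mir3473c is on chromosome 1, within the span of Traf5, and Mir3473d on chromosome 8, within the span of Ddx19b.
miR-3473c: UCUCUCCAGCCCccauaauaag
miR-3473d: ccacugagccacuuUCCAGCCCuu

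miR-3473c read 98.9, 104.4 and 92.0 on the TNF-α arrays and 82.9, 75.2 and 74.2 on the control arrays. Its groups did not overlap in density, but every value lay under the background limit. miR-3473d read 105.8, 110.4 and 89.5 with TNF-α and 73.4, 61.9 and 68.3 in controls, again under the limit on all 6 arrays. Both reporters reached the minimum density for testing on 3 TNF-α arrays and on 0 control arrays, so their entry into the test already required a difference, and neither a test nor a fold is given for them. The background peak moved the same way, and its part in their values was not tested.

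miR-882, which has the seed of miR-3473a, read 92.3, 92.4 and 71.6 with TNF-α and 76.8, 96.1 and 66.8 in controls, under the limit on all arrays. Its groups overlapped, and no difference is given because both lay below the limit.

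**Figure D4:**
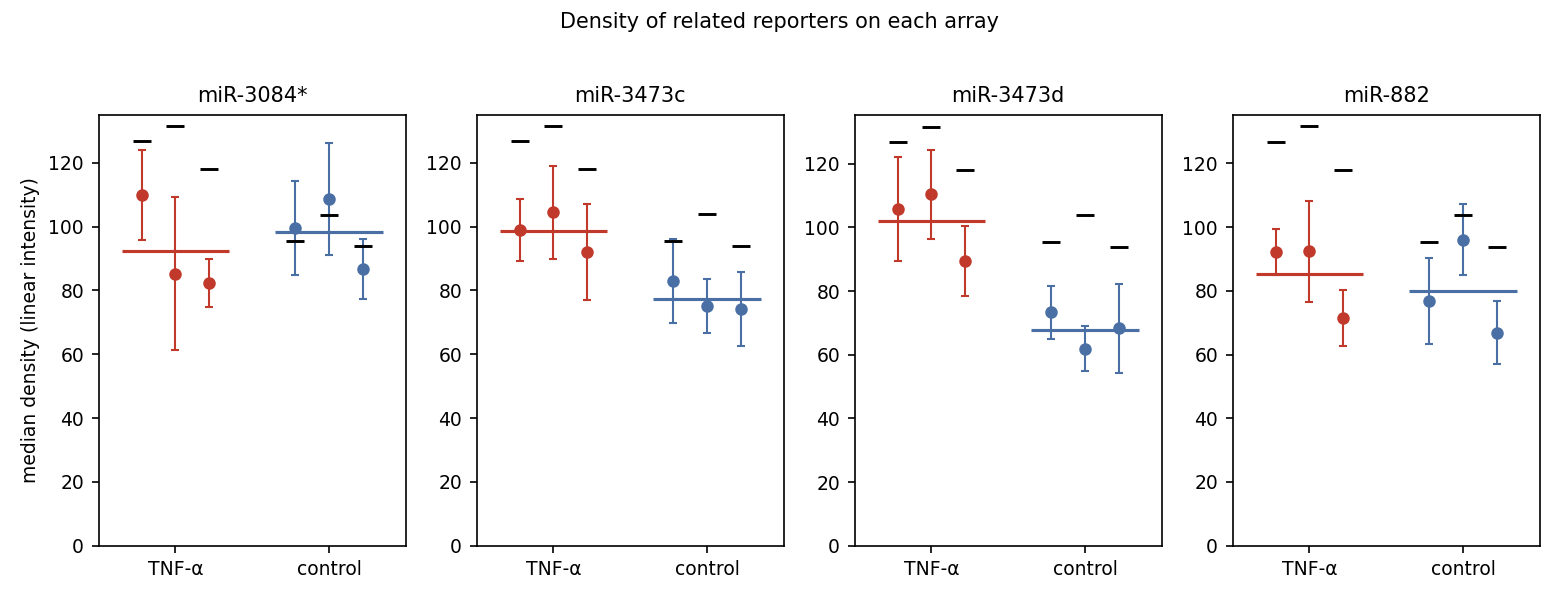
Median density of miR-3084*, miR-3473c, miR-3473d and miR-882 (linear intensity, from 0) on the 3 TNF-α and 3 control arrays, with the deposited standard deviation as whiskers, group means as lines and each array's background limit as black dashes. Of these reporters, miR-3084* on control replicates 1 and 2 is the only one to exceed a limit.

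Entries that stand near the members in miRBase numbering, which follows the order of submission, were described by counts. On the main setting these are to be read against the 12.9% higher and 9.81% lower over all tested reporters. Under other settings they are to be read against the counts given beside them. Among miR-680 to miR-721, apart from miR-690, 2 of 19 tested reporters rose and 5 fell, with a median difference of 0.03. In that range 4 of 19 rose and 3 fell without normalization, where 163 of 642 rose and 41 fell over all. Without control replicate 1, 2 of 18 rose and 2 fell, beside 53 and 31 of 626 over all. Without control replicate 2, 2 of 18 rose and 2 fell, beside 44 and 26 of 620 over all. The pair with the smallest p among those clear of background, that is above the limit on at least 3 arrays, were miR-713 and miR-714. miR-713 averaged 162 ± 17.2 with TNF-α and 220.2 ± 9.87 in controls (SD, n = 3 each; log2 -0.51 ± 0.07 SE, limma adjusted p = 0.00349). miR-714 averaged 172 ± 12.2 with TNF-α and 260 ± 54.9 in controls (-0.59 ± 0.09, adjusted p = 0.00458). The 2 that rose, named after their values were seen, were miR-720 (0.47 ± 0.09, adjusted p = 0.00819) and miR-691 (0.46 ± 0.11, adjusted p = 0.0202), both above the limit on all arrays.

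Among miR-3057 to miR-3113, apart from miR-3084, 4 of 66 tested reporters rose and 8 fell, with a median of 0.02, again beside 12.9% and 9.81% over all. Of the 18 among them clear of background, 1 rose and 4 fell, beside 45 and 44 of 278 over all. With the test limited to reporters that reached the minimum on all 6 arrays, 1 of 29 rose and 8 fell. Over all reporters under that filter, 50 of 339 rose and 58 fell. miR-3102-5p.2 fell the most, at 386 ± 41.6 with TNF-α and 1290.1 ± 227 in controls (-1.51 ± 0.11, limma adjusted p = 0.000162). miR-3077* was next, at 605 ± 117 with TNF-α and 1170 ± 93.7 in controls (-0.73 ± 0.11, adjusted p = 0.00394). Without normalization 12 of the 66 in that list rose and 4 fell, beside 163 and 41 of 642 over all. Without control replicates 1 or 2 there were 0 rises and 3 falls each. Over all tested reporters, 53 of 626 rose and 31 fell in the first case, and 44 of 620 rose and 26 fell in the second. The counts of 6 without control replicate 3, 6 without TNF-α replicate 1, 5 without TNF-α replicate 2 and 6 without TNF-α replicate 3 were also below the 12 called on all arrays. Over all tested reporters those settings called 91, 88, 79 and 83, against 146 on all arrays. With the replicate number as a block 1 rose and 5 fell, beside 55 and 48 of 642 over all. Among miR-3470 to miR-3475, apart from the members, 3 reporters were tested. They were miR-3473c and miR-3473d, which entered only through the TNF-α arrays, and miR-3474, so no count or median is given. miR-3474 averaged 132 ± 18.7 with TNF-α and 103.5 ± 5.77 in controls, and it did not pass (0.19 ± 0.08, limma adjusted p = 0.152), although it passed without normalization (0.32). The median over all 642 tested reporters was 0.01. The lists were compared by counts only.

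The profiles of the members over the 6 arrays were set against those of 274 other reporters clear of background. Likeness was the root mean square (RMS) difference on the main log2 scale after each reporter's control mean was subtracted, so it favours reporters with a like difference. miR-690 was closest to miR-29b (RMS 0.04) and miR-34a (0.07), against a median of 0.48 over the candidates. miR-3473 was closest to miR-324-5p and miR-5097 (0.10 and 0.11), with its control values under the limit. miR-3473b was closest to miR-720 (0.23), an entry since withdrawn from miRBase as a tRNA fragment, and to miR-30d (0.25). miR-3084 was closest to miR-341* (0.20) and miR-30d (0.32).

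Between members, miR-690 and miR-3473 had the most similar profiles (RMS 0.13) and miR-3084 and miR-3473 the least similar (0.46), with the control values of miR-3473 under the limit. miR-3473 and miR-3473b, which share 16 bases, were 0.32 apart, more than miR-690 and miR-3473. On TNF-α replicate 2 the pair moved apart, since miR-3473 had its highest density there (158) and miR-3473b its lowest with TNF-α (602). On the control arrays both densities were dimmest on replicate 3 and brightest on replicate 2. The median densities of these arrays had that order too, at 79.8, 82.7 and 74.7. On the main scale the orders differed, with miR-3473b highest on control replicate 1 (9.03) and miR-3473 on control replicate 2 (6.66). With TNF-α the densities of miR-3473 were 135, 158 and 141, with deposited standard deviations of 22.8, 19.1 and 17.2. Whether these reporters capture the same RNA was not tested.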

How the data were processed

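The authors deposited, per the file headers, 1 median density and 1 standard deviation per reporter and array, which are linear intensities with no background subtracted. The scanner, the release of the names and what the standard deviation is taken over are not stated in the sources used here. They also deposited a table of processed intensities, with column medians of 8.39 to 12.0 and a lowest value of 0.01. Its values are linear and run the same way, and how it was centred and scaled between arrays is unknown, so it served as an alternative, as log2 after adding 32.

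Densities were corrected with normexp (offset 50), taken to log2 and quantile normalized in limma 3.58.1 under R 4.3.3. Of the 1078 reporters, the 642 that had a corrected density, offset not included, of 32 or more on 3 or more arrays were tested, with group as the only term, two-sided, and Benjamini-Hochberg adjustment over all of them. The procedure was tested on simulated data, with changes planted only in brighter reporters. That run does not cover reporters as dim in controls as miR-3473 and miR-3084. Sequences and promoter windows were searched with Python 3.11.15, and 326 reporters matched RefSeq by exact name.

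The members, lists and settings were chosen with earlier results of these data known. The text names the members, reporters of the same name or seed, the 2 nearest profiles of each member, its neighbours in rank over all tested reporters, and the 2 reporters with the smallest p clear of background in each of 3 number ranges. The alternatives were 3 scalings, 2 background treatments, a smaller offset of 8 and a larger one, the processed table, 5 filters, another variance model, the replicate block and each array left out. Replicates of a group were numbered in accession order, since 2 of the TNF-α descriptions carry the number 3.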

Additional observations from a re-analysis of the deposited data

How the results depend on the processing

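Under 14 alternatives each, all on the arrays they were chosen on, the members kept their sign. miR-3084 moved by more than its spread between replicates with the smaller (1.30) and the larger offset (0.86). miR-690 did so without normalization (0.76), with median scaling (0.71), with cyclic loess (0.77) and in the processed table (0.75). miR-3473 did so with the background peak subtracted (0.71), with the smaller (0.86) and the larger offset (0.32) and in the processed table (0.80). miR-3473b never did. With the smaller set of arrays, leaving out 1 in turn, the number of reporters called was 70 to 91, against 146 on all arrays. It was 77 with a filter at 100 and 45 with a filter at 500, where 189 and 102 reporters were tested, and 100 to 204 under the other 13 alternatives. The split of 83 higher and 63 lower became 163 and 41 without normalization, 126 and 60 with median scaling, and 39 and 81 in the processed table. Among 9 other reporters named, 142 of 152 values kept their direction and call. The sign of miR-882 turned without normalization (0.0562) and with median scaling (0.00201).

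With the replicate number as a block, 103 reporters were called, 55 higher and 48 lower. Same-numbered arrays had correlated deviations of 0.04, 0.02 and 0.15, and not every array correlated best with its own number, so the numbers were not treated as pairs. Signal over background limits miR-3473, which has only a bound in controls, and miR-3084*, miR-3473c, miR-3473d and miR-882. The deposited standard deviations exceed the gap between the groups for miR-3473b on TNF-α replicate 2.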
